A study of Mus musculus with 12 samples.

Results

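Among 12 RNA-seq libraries of fetal mouse cortex and hippocampal formation, 6 were compared here by Egfr genotype: the 3 knockout and 3 control libraries with the higher level of Nr2f1. Libraries whose files are neighbours were taken as pairs, and from each of the 6 pairs the library with the higher Nr2f1 level was kept, whatever part of the cortex its title names. Nr2f1 therefore chose the members, and its own level is a description here and no finding. The titles give each library a genotype, a rostral or caudal part and an embryo number, and libraries are named below by genotype and titled embryo number: knockout 2, 5 and 7, and control 1, 3 and 9.

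The knockout embryos were Nestin-EgfrF/F, with both Egfr alleles flanked by recombination sites and a Cre recombinase driven by Nestin. Nestin is best known from neural progenitors, and which cells Cre acted in is not stated. The control embryos were EgfrF/+, with 1 such allele and 1 unmodified allele. All embryos were at E17.5, both genotypes carry at least 1 recombination-site allele, and the labels name no treatment. The sources used here give neither the strain nor whether controls carried Cre, so loss of Egfr and presence of the Cre transgene cannot be told apart. The number of recombination-site alleles also follows the genotype, and its part cannot be told apart either. The titled embryo numbers may be wrong. The 2 libraries titled knockout 2 held transcripts of different sexes (Xist at 0.07 and 426.5 CPM). So did those titled knockout 5 (323.9 and 0.15 CPM) and control 9 (253.1 and 0 CPM). Under control 1, and likewise under control 3, the library titled rostral held both kinds and that titled caudal a single kind. File neighbours, in contrast, held the same kind. The numbers therefore only name libraries here, and p-values below measure the spread between these 3 and 3 libraries.

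Egfr is a receptor tyrosine kinase that binds ligands of the EGF family and signals through the MAPK cascade. In late fetal cortex it is found on a subset of progenitors at the time when neuron production gives way to glia, and oligodendrocyte precursors come from such progenitors. Nr2f1 (COUP-TFI) is a nuclear receptor graded from high in caudal to low in rostral cortex, where it sets area identity.

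Nr2f1 stood at 340.2 CPM (each library's counts scaled to a total of 1000000) in knockout 2, 247.7 in knockout 5 and 347.8 in knockout 7. In the controls it stood at 343.2 in control 1, 348.4 in control 3 and 373.1 in control 9. Knockout 5 was the low library among the 6, and its pair was the least separated: its neighbour held 205.4 CPM, a ratio of 1.21. In the other 5 pairs the higher library held 3.50 to 6.77 times the level of the lower. The titles do not follow this order, since knockout 2 and control 3 are titled rostral and the other 4 are titled caudal. Nr2f2, a relative of Nr2f1 also known from caudal cortex, separated the knockouts among themselves, at 128.2 CPM in knockout 2, 42.0 in knockout 5 and 55.2 in knockout 7, against 113.2 to 142.8 in the controls.

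**Figure D1:**
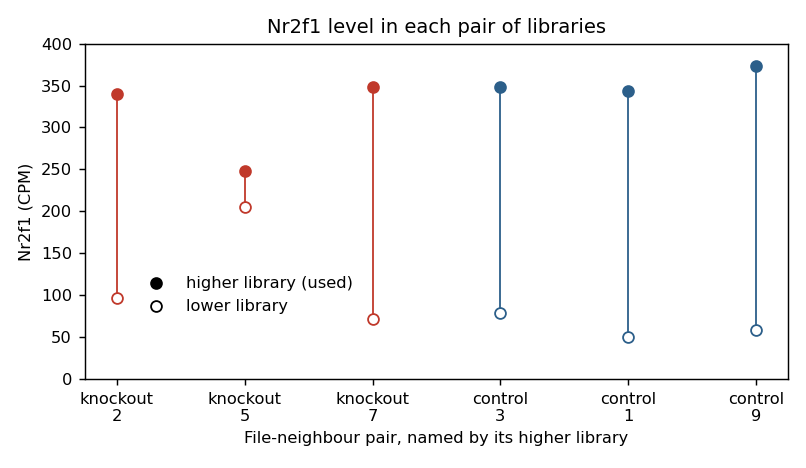
Nr2f1 level in CPM (vertical axis) of both libraries of each pair, with filled points for the higher library that was used, open points for the lower, red for knockout and blue for control. The pair of knockout 5 is nearly closed, at 247.7 and 205.4 CPM, while the others are 3.50 to 6.77 times apart.

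The 6 libraries held 25223733 to 30383672 counted fragments and 25682 to 26832 genes above 0. Markers of cortical neurons were present in all of them, with Tbr1 between 161.3 and 195.5 CPM. The libraries did not group by genotype: of all 15 pairs, knockout 2 and control 3 were the most alike (Pearson r of log levels across genes 0.9955, a description of these libraries) and knockout 2 and knockout 5 the least (0.9796). The summed level of Cajal-Retzius and subplate genes set knockout 2 and control 3 apart in the same way, at 687.7 and 880.8 CPM against 202.1 to 368.9 in the other 4. Mitochondrially encoded transcripts made up 4.77% of knockout 5 and 1.97% to 3.53% of the others. By Xist and 4 Y-linked genes, knockout 2 and control 1 held male transcripts, knockout 5, knockout 7 and control 9 held Xist with Y genes at 0 to 1.73 CPM, and control 3 held both, at 278.3 CPM of Xist and 92.0 CPM of Y genes. The part of these differences in the results was not tested; results that change without the libraries concerned are given below.

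The targeted gene was low in every library labelled knockout. Egfr (ENSMUSG00000020122.17, GRCm39 chr11:16702203-16868158) was at 3.601 CPM in knockout 2, 5.69 in knockout 5 and 6.21 in knockout 7, and at 29.9 in control 1, 25.97 in control 3 and 41.6 in control 9. The genotypes did not overlap. The knockout mean was 5.17 ± 1.38 CPM (SD, n = 3), 15.9% of the control mean of 32.5 ± 8.15 CPM (SD, n = 3). An exact two-sided permutation test gave p = 0.1, the smallest that 3 against 3 allows. Across all genes, edgeR's quasi-likelihood test gave a log2 fold change of -2.63 (SE 0.27) and a Benjamini-Hochberg adjusted p of 0.0757, which is above the threshold of 0.05. The adjusted p lay between 1.12e-18 (DESeq2) and 0.666 (without knockout 5) over the alternatives. Counts are summed over all exons of the gene, so transcripts that lack the deleted part and transcripts of cells without Cre cannot be told apart from intact ones.

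With 3 libraries against 3, a single gene passed the test in the higher-Nr2f1 libraries: Gh was called higher in the knockout, and edgeR called none lower. That is 1 of 16984 genes tested, 0.00589%. At an unadjusted p under 0.05 there were 240 genes (1.41%), where 849.2 would be expected if no gene differed. DESeq2 called 6 of the 16977 genes it adjusted (0.0353%): Gh and 2610507I01Rik higher, and Egfr, Olig2, Olig1 and Hes5 lower. In 558 genes (3.29%) all 3 knockout libraries lay below all 3 controls, and in 255 (1.5%) above. The median log2 fold change over all genes tested was 0.00, and 8188 of them (48.2%) were negative. These are the values against which the groups below are read.

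Gh encodes growth hormone, a hormone known from the pituitary. Its gene (ENSMUSG00000020713.7) lies at GRCm39 chr11:106191097-106192691. The counts are per gene, so fragments of this locus and fragments of like sequence in a transgene that the knockouts carry cannot be told apart, and the values below are of fragments counted to Gh. It was at 6.12 CPM in knockout 2, 7.75 in knockout 5 and 7.87 in knockout 7, and at 0 in all 3 controls. The knockout libraries held 175 to 235.5 counts each and the controls none. Taking 3 counts over the 3 control libraries together as the floor (0.0389 CPM), the level in the knockouts (7.25 ± 0.98 CPM, SD over 3 libraries) was higher by at least 186-fold. The adjusted p was 0.0185, and DESeq2 (adjusted p 6.1e-13) and limma-voom (adjusted p 0.000408) called Gh too. On leaving out each library its log2 fold change stayed between 10.54 and 10.73. The call was lost without knockout 5 (0.341), without knockout 7 (0.276) and without control 9 (0.0522). It was also lost when a block was fitted for the other number in the titles, 4858 or 4692 (0.0688). That number may be wrong too, since it differs between some file neighbours, such as knockout 5 (4858) and its neighbour (4692). Of the 11 pituitary genes listed, only Gh and Pomc were high enough to be tested. Pomc, the precursor of corticotropin, was at 0.55 to 0.73 CPM in the knockouts and 0.75 to 1.16 in the controls. Cga and Tshb, which mark other pituitary cells, were at 0 in all 6 libraries, and Prl and Pou1f1, markers of the lineage that makes growth hormone, did not exceed 0.07 CPM.

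A long non-coding RNA, 2610507I01Rik (GRCm39 chr11:59090662-59093211), showed the same arrangement without passing edgeR's test. It is named after its values were seen. It was at 3.15, 2.62 and 2.38 CPM in knockout 2, 5 and 7, and at 0.12, 0.28 and 0.35 in control 1, 3 and 9. Its log2 fold change was 3.47 (SE 0.37) with an adjusted p of 0.0757. DESeq2, the edgeR fit without a filter and the edgeR fit of all 12 libraries called it.

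**Figure D2:**
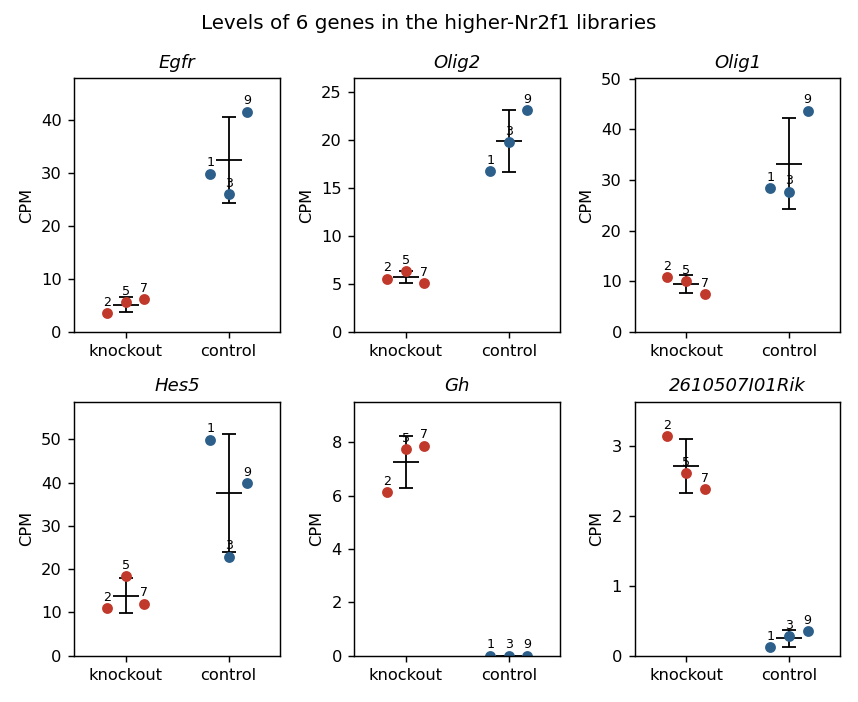
Level in CPM (vertical axes, from 0) of 6 genes in the 3 knockout (red) and 3 control (blue) libraries, each point numbered by its titled embryo, with the mean (horizontal bar) and SD (error bar). All 3 knockout libraries lie on 1 side of all 3 controls in each panel; Hes5 is the closest, with knockout 5 at 18.5 and control 3 at 22.9 CPM.

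Oligodendrocyte precursor genes had the lowest median of the glial lists. Olig2, the transcription factor that specifies oligodendrocyte precursors, had the smallest p of any gene after Gh, and its neighbour Olig1, which acts in the same lineage, was close behind. Both lie on GRCm39 chromosome 16 (Olig2 chr16:91022345-91025565, Olig1 chr16:91066660-91068821). Olig2 was at 5.56, 6.35 and 5.12 CPM in knockout 2, 5 and 7, and at 16.7, 19.8 and 23.1 in control 1, 3 and 9. The knockout mean was 28.5% of control, and the highest knockout library was well under the lowest control. The log2 fold change was -1.78 (SE 0.17) with an adjusted p of 0.0589, so that it missed the threshold in edgeR. It was past it in DESeq2 (5.53e-16), without a filter, in a fit of all 12 libraries and without both knockout 2 and control 3. The last of these was chosen after seeing the data. In the other alternatives its adjusted p missed the threshold. It was 0.0588 to 0.382 on leaving out each library, 0.121 in limma-voom, 0.136 with a block for the titles' other number and 0.353 in the libraries titled caudal. Olig1 was at 10.8, 10.01 and 7.42 CPM in the knockouts and 28.4, 27.7 and 43.7 in the controls. Its knockout mean was 28.3% of control, its log2 fold change -1.80 (SE 0.23) and its adjusted p 0.235. In bulk tissue, fewer cells of a type and less RNA per cell cannot be told apart.

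The other precursor genes were arranged in the same direction with smaller differences, and none passed the test. Of 14 genes tested from the list of oligodendrocyte precursors, none was called, 13 had a negative log2 fold change and in 5 the genotypes did not overlap, all with the knockout lower (35.7% of the list, against 3.29% of all genes). The median was -0.52, between -0.67 and -0.33 (without knockout 7) on leaving out each library, and that over all genes was 0.00. Summed levels, most of which is Ptprz1, overlapped, at 810.5 to 984.8 CPM in the knockouts and 929.3 to 1055 in the controls. Pdgfra, the receptor for the precursors' growth factor, was at 20.6, 20.5 and 14.3 CPM in knockout 2, 5 and 7 and at 25.3, 24.1 and 40.7 in control 1, 3 and 9 (log2 fold change -0.68, SE 0.24, adjusted p 1). Sox10, a transcription factor of the whole lineage, was at 1.13 to 2.08 CPM in the knockouts and 2.53 to 3.77 in the controls (-0.90, SE 0.28, adjusted p 1). Gpr17, a receptor of precursors about to mature, was at 4.34 to 6.26 CPM in the knockouts against 6.50 to 9.42. In contrast, Ptprz1 and Rlbp1, which radial glia also express, stood at -0.03 and 0.08 on the log2 scale. Ventral forebrain progenitors also make Olig1 and Olig2. The list for ventral forebrain and striatum had 13 of 16 genes negative and a median of -0.36, with summed levels of 627.7 to 956.3 CPM in the knockouts and 670.9 to 884.8 in the controls, so the genotypes overlapped; its median lay between -1.04 (without knockout 5) and -0.01 (without knockout 7). Its part in the Olig values was not tested.

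Hes5 was next among genes with a known role in progenitors. It is a transcriptional repressor switched on by Notch that holds progenitors undifferentiated, and the Notch effector RBPJ binds DNA with the core GTGGGAA. The 250 bases before the start of Hes5 are shown because they hold 2 such cores, and those of Olig2 because they hold none; both are from RefSeq on GRCm38.p6, plus strand (Hes5 chr4:154960673-154960922, Olig2 chr16:91225300-91225549), with the core in capitals as it reads on either strand.
Hes5: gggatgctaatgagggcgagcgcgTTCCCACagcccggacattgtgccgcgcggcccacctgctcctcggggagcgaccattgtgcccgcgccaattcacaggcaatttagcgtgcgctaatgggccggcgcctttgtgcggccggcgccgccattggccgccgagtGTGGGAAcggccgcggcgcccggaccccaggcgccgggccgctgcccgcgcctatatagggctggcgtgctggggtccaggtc
Olig2: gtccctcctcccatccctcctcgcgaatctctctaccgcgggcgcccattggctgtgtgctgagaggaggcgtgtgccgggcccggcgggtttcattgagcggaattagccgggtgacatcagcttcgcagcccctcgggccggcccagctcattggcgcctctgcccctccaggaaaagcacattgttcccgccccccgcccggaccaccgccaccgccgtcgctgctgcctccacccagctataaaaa
The cores of Hes5 begin at bases -226 and -83 from the start. Of 32851 mouse promoters searched over the same length on both strands, 1779 (5.42%) held the core. A match is a description of the sequence and not a bound site.

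Hes5 (GRCm39 chr4:155045380-155046828) was at 11.01 CPM in knockout 2, 18.5 in knockout 5 and 12.03 in knockout 7. In the controls it was at 49.9 in control 1, 22.9 in control 3 and 39.8 in control 9. The genotypes did not overlap, although control 3 came near knockout 5. The knockout mean of 13.8 ± 4.03 CPM was 36.8% of the control mean of 37.6 ± 13.7 CPM (SD, n = 3 each). The log2 fold change was -1.42 (SE 0.31) with an adjusted p of 1 in edgeR and 0.00677 in DESeq2.

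Other Notch pathway genes had smaller log2 fold changes than Hes5, mostly of the same sign. Of 17 pathway genes tested, none was called, 15 were negative and 5 did not overlap (29.4% against 3.29% of all genes, all with the knockout lower), and the median was -0.13. Hes1, the other main Notch-induced repressor of progenitors, was at 7.69 to 11.9 CPM in the knockouts and 13.6 to 15.7 in the controls (log2 fold change -0.51, SE 0.18, adjusted p 1). The ligands Dll1 and Jag1 stood at -0.13 and -0.12 on the log2 scale, and the receptor Notch1 at -0.13. Rbpj itself stood at 0.04. Radial glia genes as a group, which include Hes1 and Hes5, had 14 of 18 negative (77.8%, against 48.2% of all genes). In 3 the genotypes did not overlap, all with the knockout lower (16.7%, against 3.29%). The median was -0.09, between -0.19 (without knockout 5) and 0.01 (without knockout 2) on leaving out each library.

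Regulators of the switch to glia overlap in part with these lists. Of 21 tested, none was called, 17 were negative and the median was -0.18. In 6 the genotypes did not overlap, all with the knockout lower (28.6%, against 3.29% of all genes). At an unadjusted p under 0.05 there were 7 of the 21, against 1.41% of all genes. Those 7 were Olig2, Olig1, Hes5, Sox10, Hes1, Id1 and Atf3. Id1, an inhibitor of differentiation factors induced by BMP, was at 6.29 to 7.77 CPM in the knockouts and 8.10 to 11.1 in the controls (-0.43). Sox9 and Nfib, which promote astrocyte formation, stood at -0.18 and 0.23 on the log2 scale. Astrocyte genes were evenly placed, with 11 of 17 negative, no gene without overlap and a median of -0.01. Genes of maturing oligodendrocytes had 3 of 6 tested negative and a median of 0.00. In 2 of the 6 the genotypes did not overlap, with the knockout lower (33.3%, against 3.29% of all genes). Mal, a membrane protein of myelin, was at 0.16 to 0.76 CPM in the knockouts and 0.83 to 1.23 in the controls (-0.99, SE 0.49, adjusted p 1). Mbp, another myelin protein, was at 15.8 to 17.3 CPM in the knockouts and 13.4 to 15.8 in the controls.

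**Figure D3:**
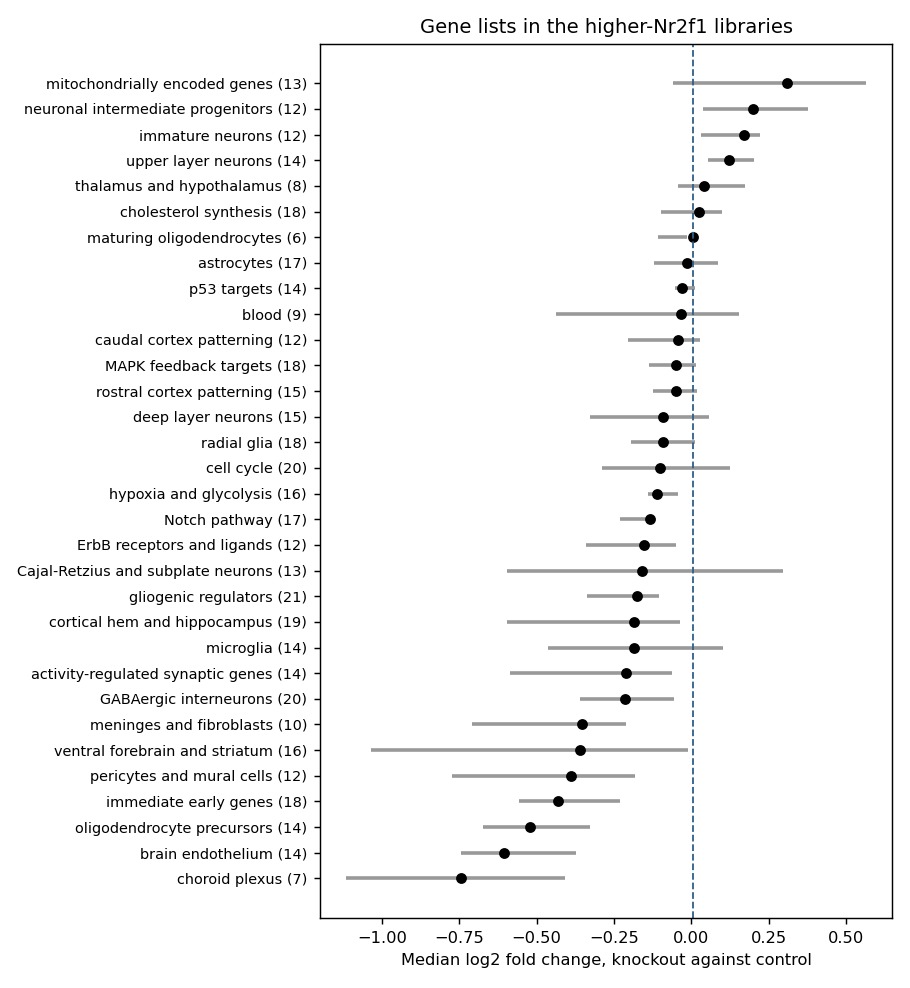
Median log2 fold change, knockout against control (horizontal axis), of each gene list except pituitary hormones in the 6 libraries, with the number of genes tested in parentheses. Grey lines span the medians on leaving out each library in turn and the dashed line is the median over all genes tested (0.00); oligodendrocyte precursors, immediate early genes, brain endothelium and choroid plexus lie lowest, from -0.43 to -0.74.

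Immediate early genes, which are switched on within minutes by calcium and MAPK signalling, lay below control as a group. Which cells supplied these transcripts was not tested. Of 18 tested, none was called, 16 were negative and 6 had an unadjusted p under 0.05, against 1.41% of all genes. In 4 the genotypes did not overlap, all with the knockout lower (22.2%, against 3.29% of all genes). The median was -0.43, between -0.56 and -0.23 (without control 9) on leaving out each library. Summed levels overlapped, at 1027 to 1278 CPM in the knockouts and 1177 to 1789 in the controls. Klf6, a zinc finger factor (GRCm39 chr13:5911481-5920393), had the smallest p: it was at 58.7, 59.8 and 53.8 CPM in knockout 2, 5 and 7 and at 85.3, 68.8 and 84.0 in control 1, 3 and 9 (log2 fold change -0.44, SE 0.11, adjusted p 1). Egr3, an early growth response factor, was at 10.5, 9.17 and 11.8 CPM in the knockouts and 19.8, 13.5 and 19.6 in the controls (-0.72, SE 0.19, adjusted p 1). Arc, which regulates glutamate receptors at synapses, was at 2.93 to 3.53 CPM in the knockouts and 4.09 to 5.69 in the controls (-0.62, SE 0.20, adjusted p 1). In Klf6 and Egr3 control 3 was the control nearest to the knockouts. The same library put Fos among the overlapping genes, at 172.3 CPM in control 3 against 141.6 to 207.1 in the knockouts and 247.6 and 361.9 in the other controls. Synaptic genes regulated by activity had 11 of 14 negative and a median of -0.21; Nptx2, a secreted pentraxin that gathers glutamate receptors, was at 2.19 to 3.37 CPM in the knockouts and 4.71 to 4.81 in the controls (-0.80, SE 0.20, adjusted p 1).

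Feedback genes of the MAPK cascade, which lies below Egfr, differed less. Of 18 tested, 11 were negative and the median was -0.05. In 3 the genotypes did not overlap, all with the knockout lower (16.7%, against 3.29% of all genes). Those with the smallest p were Dusp5, a phosphatase of ERK, at 2.87 to 4.46 CPM in the knockouts and 4.08 to 7.92 in the controls (-0.84, SE 0.30, adjusted p 1), and Spry4, an inhibitor of receptor signalling, at 3.12 to 4.37 against 4.82 to 6.57 (-0.56, SE 0.20, adjusted p 1). Etv5, Spry2 and Spred1, also feedback genes or targets of ERK, stood at -0.06, -0.06 and 0.03 on the log2 scale. Among receptors and ligands of the ErbB family, 9 of 12 tested were negative and only Egfr did not overlap (8.33%, against 3.29% of all genes). Erbb4, a neuregulin receptor of neurons, was at 131.0 CPM in knockout 2 and 78.7 and 85.4 in knockout 5 and 7, against 118.9 to 135.7 in the controls (-0.33, SE 0.19, adjusted p 1). Erbb2 and the ligands Nrg1, Tgfa and Hbegf stood between -0.18 and 0.07 on the log2 scale.

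Vessel genes lay below control as a group, although none passed the test. Of 14 brain endothelium genes tested, 13 were negative, 7 did not overlap, all with the knockout lower (50% against 3.29% of all genes), and the median was -0.60, between -0.74 and -0.37 (without knockout 7) on leaving out each library. Summed levels overlapped, at 170.5 to 250.8 CPM in the knockouts and 241.6 to 331.5 in the controls. Pecam1, an adhesion molecule of endothelial cells, was at 11.5, 12.97 and 6.84 CPM in knockout 2, 5 and 7 and at 15.7, 16.4 and 20.5 in control 1, 3 and 9 (log2 fold change -0.73, SE 0.24, adjusted p 1). Cdh5, the endothelial cadherin, was at 11.99, 13.1 and 6.68 CPM in the knockouts and 16.4, 15.5 and 20.3 in the controls (-0.69, SE 0.25, adjusted p 1). In both genes knockout 7 was the lowest and control 9 the highest library. Mfsd2a, a lipid transporter of the blood-brain barrier, was at 17.4 to 19.3 CPM in the knockouts and 21.8 to 25.1 in the controls (-0.30, SE 0.10, adjusted p 1). Col18a1, a basement membrane collagen chosen by its p, was at 6.87, 7.95 and 5.31 CPM in knockout 2, 5 and 7 and at 12.7, 11.2 and 14.1 in control 1, 3 and 9 (-0.89, SE 0.18, adjusted p 1).

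Cells that surround vessels gave lower values with more overlap. Pericyte and mural genes had 11 of 12 negative, none without overlap and a median of -0.39 (-0.77 without knockout 5, -0.18 without control 9), and meningeal and fibroblast genes 9 of 10 negative, none without overlap and a median of -0.35 (-0.71 without knockout 5, -0.21 without control 9). Rgs5, a regulator of G protein signalling and a marker of pericytes, was at 29.3, 49.4 and 24.5 CPM in knockout 2, 5 and 7 and at 43.0, 52.3 and 51.6 in control 1, 3 and 9 (-0.48, SE 0.24, adjusted p 1). Knockout 5 lay within the range of the controls, and this held for summed pericyte genes too, at 168.2 CPM in knockout 5, 99.5 and 102.1 in the other knockouts and 142.4 to 178.5 in the controls. Microglia genes had 11 of 14 negative and a median of -0.19, with summed levels of 120.2 to 223.6 CPM in the knockouts and 123.4 to 269.3 in the controls. Blood genes had a median of -0.03.

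**Figure D4:**
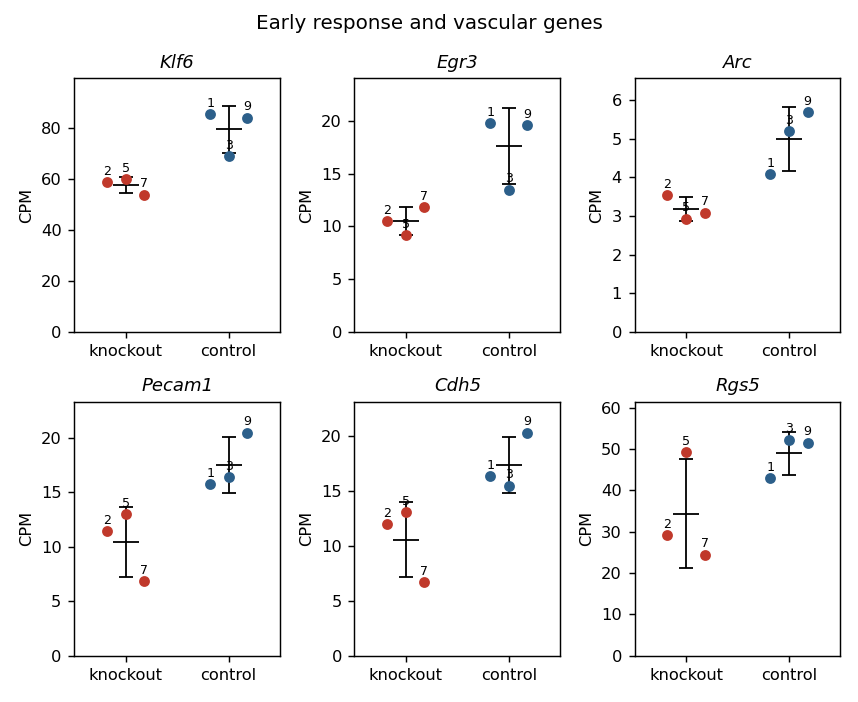
Level in CPM (vertical axes, from 0) of 3 immediate early genes (top) and 3 vessel genes (bottom) in knockout (red) and control (blue) libraries, numbered by titled embryo, with the mean (horizontal bar) and SD (error bar). The genotypes do not overlap in Klf6, Egr3, Arc, Pecam1 and Cdh5, while knockout 5 (49.4 CPM) lies inside the controls' range in Rgs5.

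The same contrast in the 6 lower-Nr2f1 libraries, the file neighbours of these, was set beside it. The neighbours may come from the same embryos: in each pair both libraries held the same kind of sex-linked transcripts. There too edgeR called 1 of 17031 genes (0.00587%), and it was Gh. The vessel groups had the opposite sign there: all 14 endothelium genes were positive with a median of 0.44, and all 11 pericyte genes tested were positive with a median of 0.59. A test of the difference itself (genotype by Nr2f1 class, with the pair as a block, in all 12 libraries) called 1 of 17734 genes (0.00564%), and 850 (4.79%) had an unadjusted p under 0.05. The gene was Rgs5, at -1.08 on the log2 scale (adjusted p 0.0098). In the lower-Nr2f1 libraries Rgs5 was at 44.2 to 79.8 CPM in the knockouts and 31.3 to 42.6 in the controls, a log2 fold change of 0.59. The call was lost without the pair block (adjusted p 1) and on leaving out the pair of knockout 7 (0.11), control 3 (0.127), control 1 (0.193) or control 9 (0.0938). The classes were set by measured Nr2f1, so a gene that follows Nr2f1 is not independent of them.

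In that test all 14 endothelium genes and all 13 pericyte genes had a negative value, against 47.6% of all genes, with medians of -1.08 and -1.01. Negative values were also common in lists of other kinds: cell cycle genes had 20 of 20, mitochondrially encoded genes 13 of 13, blood genes 9 of 9, radial glia genes 17 of 18 and astrocyte genes 16 of 17. None of the endothelium genes passed it; Cdh5 stood at -1.22 (adjusted p 0.449) and Pecam1 at -1.17 (adjusted p 0.408). Microglia genes were negative in 14 of 14, with a median of -0.46, and precursor genes in 14 of 14, with a median of -0.74. Within the lower-Nr2f1 libraries themselves, only 4 of 14 precursor genes had a negative log2 fold change, and their median was 0.08. Microglia genes were negative in 0 of 14 there, with a median of 0.43. Olig2 had a log2 fold change of -0.99 in the lower-Nr2f1 libraries and a difference between the classes of -0.77 (adjusted p 0.384), and Olig1 was at -0.76 there with a difference of -0.99 (adjusted p 0.177). For Pdgfra the log2 fold change in the lower-Nr2f1 libraries was 0.09 (difference -0.75, adjusted p 0.208). Egfr at -2.17, Hes5 at -1.06 and Klf6 at -0.43 in the lower-Nr2f1 libraries had the same sign in both classes, with differences of -0.48, -0.33 and 0.01 (adjusted p 0.783, 0.998 and 0.998). Immediate early genes were negative in 18 of 18 in the lower-Nr2f1 libraries, with a median of -0.45, and 7 of 18 were negative in the test of the difference.

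**Figure D5:**
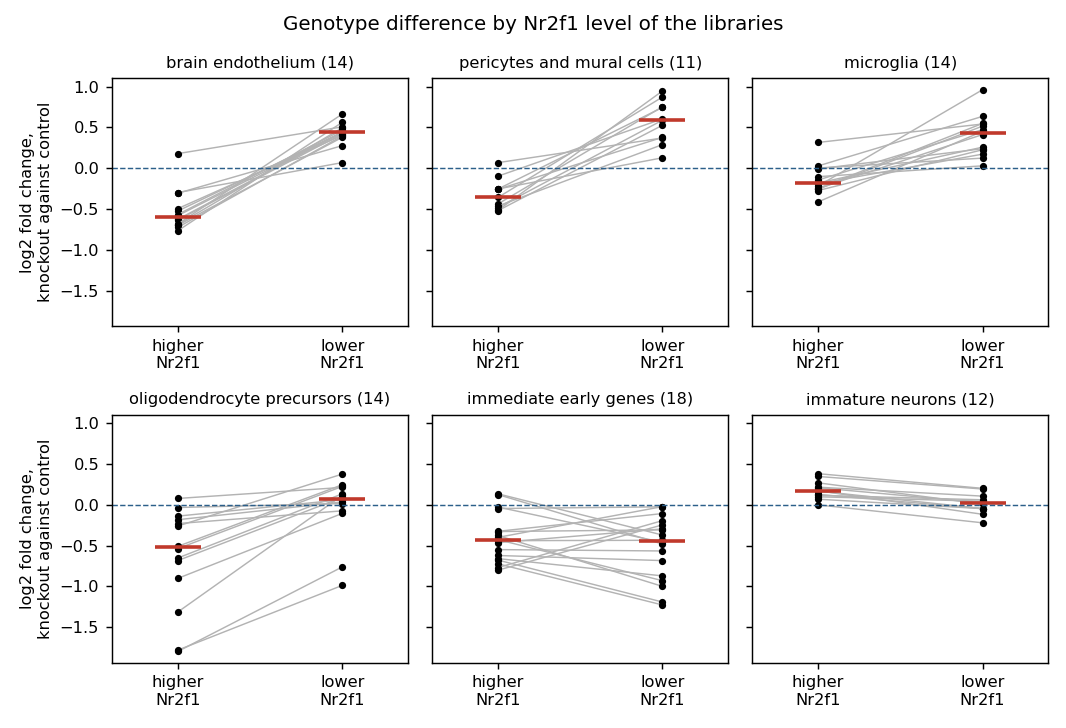
Log2 fold change, knockout against control (vertical axis), of each gene of 6 lists in the higher-Nr2f1 and the lower-Nr2f1 libraries, joined by a line, with the median of the genes tested in both classes in red and their number in parentheses. Endothelium genes go from a median of -0.60 to 0.44, whereas immediate early genes stay at -0.43 and -0.45.

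Lists of immature neurons, upper layer neurons and intermediate progenitors had medians above 0, and those of deep layer, Cajal-Retzius and subplate, and GABAergic neurons below. All 12 genes of immature neurons were positive with a median of 0.17, 12 of 14 upper layer genes were positive with a median of 0.12, and 10 of 12 genes of neuronal intermediate progenitors were positive with a median of 0.20; none was called and none was without overlap. Without knockout 7 these medians were 0.03, 0.05 and 0.04. Neurog2, which drives neuron formation, was at 60.6, 104.5 and 110.1 CPM in knockout 2, 5 and 7 and at 76.0, 71.7 and 84.3 in control 1, 3 and 9 (log2 fold change 0.28, SE 0.22, adjusted p 1). Pou3f2, a factor of upper layer neurons, was at 190.0, 371.6 and 426.6 CPM in the knockouts and 261.8, 202.5 and 243.0 in the controls (0.52, SE 0.28, adjusted p 1). In both genes knockout 2 was the lowest of all 6 libraries and knockout 5 and 7 the highest. Deep layer genes had 11 of 15 negative and a median of -0.09, between -0.33 and 0.06 on leaving out each library. Cajal-Retzius and subplate genes had 10 of 13 negative and a median of -0.16, which was 0.30 without control 3 and -0.60 without knockout 2. Genes of GABAergic interneurons had 18 of 20 negative and a median of -0.21, or -0.06 without knockout 7; Gad1, an enzyme that makes GABA, was at 38.5, 43.7 and 24.96 CPM in the knockouts and 51.7, 46.8 and 46.9 in the controls (-0.41, SE 0.18, adjusted p 1). Cell cycle genes had 19 of 20 negative with a median of -0.10, and without knockout 2 the median was 0.12.

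Some lists mark neighbouring tissue or RNA composition. Choroid plexus genes, of which 7 of 14 were tested, were negative in 7 of 7 with a median of -0.74, between -1.12 and -0.41 on leaving out each library. Their summed levels did not overlap, at 73.2 to 93.9 CPM in the knockouts and 96.5 to 153.3 in the controls, although no single gene tested was without overlap. Ttr, the plexus's main secreted protein, was at 0.35, 5.76 and 0 CPM in knockout 2, 5 and 7 and at 10.1, 49.5 and 3.61 in control 1, 3 and 9 (log2 fold change -3.29, SE 1.51, adjusted p 1). The summed levels include Ttr, and without it they overlapped. Control 1 (99.9 CPM summed, 10.1 of it Ttr) then fell below knockout 2 (92.15 CPM summed, 0.35 of it Ttr). In the lower-Nr2f1 libraries, where Ttr was at 0.04 to 0.32 CPM, the summed levels were 78.45 to 92.79 CPM. Genes of the cortical hem and hippocampus had 14 of 19 negative and a median of -0.18, with summed levels of 1213 to 1741 CPM in the knockouts and 1241 to 1754 in the controls. The mitochondrially encoded genes had 12 of 13 positive with a median of 0.31, and without knockout 5 the median was -0.06.

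The remaining genes with the smallest p at a mean of at least 1 CPM belong to no list. Ednrb, an endothelin receptor of glial progenitors, was at 40.3, 45.4 and 45.3 CPM in knockout 2, 5 and 7 and at 63.6, 57.5 and 79.7 in control 1, 3 and 9 (log2 fold change -0.59, SE 0.14, adjusted p 1). Tmem229b, a membrane protein, was at 120.4, 129.1 and 127.9 CPM in the knockouts and 100.7, 107.8 and 90.7 in the controls (0.37, SE 0.08, adjusted p 1). Dok5, an adaptor of receptor tyrosine kinases, was at 72.7, 71.0 and 69.6 CPM in the knockouts and 57.4, 63.2 and 56.4 in the controls (0.30, SE 0.07, adjusted p 1). In all 3 genes the genotypes did not overlap, and in the lower-Nr2f1 libraries their log2 fold changes were 0.11, 0.09 and 0.03.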

How the data were processed

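Messenger RNA was sequenced as paired reads from 12 libraries, per the labels' protocols. Per the submitters' processing notes, the tools were STAR 2.7.8a and featureCounts 2.0.3, and per the file headers fragments were counted on the reverse strand, reads of several places or genes being split between them. So the deposited files hold expected counts per gene, without normalization; 21.7% to 23.9% of genes above 0 were not whole, and genes with near-identical copies are uncertain. Counts of 55357 genes were rounded, and edgeR 4.0.16 was run in R 4.3.3 (TMM, filterByExpr with a minimum count of 10, robust quasi-likelihood, Benjamini-Hochberg adjusted p under 0.05), with 4 residual degrees of freedom. DESeq2 1.42.0 and limma 3.58.1 were alternatives. The SE is the log2 fold change over the square root of F. CPM are per library total, without TMM. The scripts were tested on simulated data.

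Genes were taken for naming by a rule: Egfr and Nr2f1, the 10 with the smallest p at a mean of at least 1 CPM (fewer than 10 being called), and the 2 members with the smallest p of each of 33 lists, leaving out predicted genes, pseudogenes and X and Y genes; not all of these 65 are printed, and others named were chosen after their values were seen. The members and lists were chosen with earlier results of these data known, so lists are described by counts and medians without a test. Promoters, found for 45 of 65 named genes, are RefSeq's.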

Additional observations from a re-analysis of the deposited data

Results flagged for a closer look

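Rgs5 is the gene whose knockout-control difference differed between the higher- and the lower-Nr2f1 libraries by a test of that difference, at -1.079 on the log2 scale. Its log2 fold change was -0.48 in the higher-Nr2f1 and 0.59 in the lower-Nr2f1 libraries. Over the alternatives the value lay between -1.11 and -1.03 and the adjusted p between 2.66e-06 (no filter on low counts) and 1 (no pair block). Summed levels of the 13 pericyte genes listed were 99.5 to 168.2 CPM in the knockout and 142.4 to 178.5 CPM in the control libraries with higher Nr2f1, and their part in the value was not tested.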

How the results depend on the processing

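No paired analysis was possible because knockout and control libraries share no embryo number. The count of genes called (1) was 6 with DESeq2, 4 with no filter, 0 with a block for the titles' other number (4858 or 4692), 5 in a fit of all 12 libraries, 8 in the libraries titled caudal and 0 to 2 on leaving out each library. It was 0 without knockout 5, without knockout 7 and without control 9, and 2 without control 3, which added Rpl30-ps10. In alternatives chosen after seeing the data, it was 0 without both knockout 5 and control 3, and 9 without both knockout 2 and control 3: Gh, Egfr, Olig2, Cdh13, Tafa1, Gm12191 and 3 pseudogenes of Rpl30. The fit of all 12 libraries had no pair block, so file neighbours, which may come from the same embryos, counted as independent in it. The interaction count (1) was 46 with no filter, 0 with no pair block and 0 to 10 on leaving out each pair, with 10 without the pair of knockout 2. DESeq2's size factors, limma-voom, a test against a 1.2-fold change and leaving out X and Y genes each called 1 gene, Gh. Egfr in the knockout was 14.3% to 18.5% of control over its alternatives. Of the list medians recomputed, 231 kept their sign and 33 did not, whatever the size of the move. The biological coefficient of variation was 0.219.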
